A study of Oryza sativa with 24 samples.

Results

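The 6 genes described here code for products of the rice tapetum: the cysteine protease gene OsCP1 (Os04g0670500), the aspartic protease genes OsAP37 (Os04g0448500) and OsAP25 (Os03g0186900), the lipid transfer protein genes OsC4 (Os08g0546300) and OsC6 (Os11g0582500), and RAFTIN1 (Os08g0496800). They were chosen by name, as 6 of the 37910 gene identifiers in the files, for their known role in tapetum breakdown and in the export of wall material, and all 6 had values high enough to be tested. The choice was made with earlier results of these data known. How many of the 6 changed, set beside all identifiers, is therefore a description and not an independent test. RNA of anthers was sequenced in 24 libraries from 4 rice lines, named Nipponbare, Sasanishiki, PL9 and Lambayeque1 in the labels. Each line had 3 untreated libraries and 3 libraries from anthers kept at 12 °C for 4 days, a treatment begun near the early microspore stage, with the auricle distance within 1 cm of zero. All lines shared the same greenhouse conditions (days of 25 °C, nights of 19 °C, 20 plants in each pot), and no line carries a transgene by the labels. The libraries are numbered 1 to 3 in the titles, whereas the series text speaks of 2 replicates. Whether they stand for different plants is not given, so the p-values speak of library-to-library spread, possibly only technical. The labels also do not say when the untreated anthers were collected relative to the treated ones, so cold and a difference in developmental stage cannot be told apart.

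The tapetum is the innermost layer of the anther wall. It feeds the developing microspores, makes the lipid precursors of the outer pollen wall and then breaks down by programmed cell death, in which proteases take part. In rice the basic helix-loop-helix factor TDR, a regulator of tapetum breakdown, binds the promoters of OsCP1 and OsC6, and its partner EAT1 directly activates OsAP25 and OsAP37. Lipid transfer proteins such as OsC6 carry wall lipids out of the tapetum, and RAFTIN1, a BURP-domain protein, sits on the small bodies that deliver sporopollenin to the pollen surface.

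The values are those the authors deposited, headed TPM, a unit that corrects for transcript length. A TPM column has a fixed sum, from which the libraries departed by factors of 0.859 to 1.36, so the values are used here as an abundance signal on the authors' scale, and the depth behind them is unknown. Between 22367 and 24281 identifiers reached a value of 1 per library. The 6 genes took 0.518% to 1.96% of the total signal of an untreated library and 2.99% to 7.79% of that of a cold library. PL9 cold libraries 1 and 2 stood farthest from their own group, with median correlations of 0.915 and 0.901 with the group's other libraries over all identifiers, and they are given separately wherever a result rests on them. Of the markers of stamen identity, MADS16, an identity gene of lodicules and stamens, changed by 0.10 on the log2 scale with cold (adjusted p 0.37), MADS2 fell by 0.46 (adjusted p 0.0014) and MADS3 by 0.54 (adjusted p 0.0072, all limma), and the summed stamen markers ranged from 1876 to 4811 in untreated and from 1923 to 3190 in cold libraries.

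All 6 genes were higher after cold when the 4 lines were averaged, against 25.8% of the 27655 identifiers tested. The lipid transfer protein gene OsC4 rose most, by 8.0 (SE 0.42) on the log2(value + 1) scale used for every change here, and OsAP25 followed at 6.06 (SE 0.65). OsAP37 rose by 2.45 (SE 0.62), OsC6 by 2.03 (SE 0.27), OsCP1 by 1.73 (SE 0.38) and RAFTIN1 by 1.14 (SE 0.13). Adjusted p-values from limma were between 1.0e-10 for OsC4 and 0.0028 for OsAP37 (12 libraries a side). The median change was 2.24 over the 6 genes and -0.001 over all identifiers tested. Ordered by size among all 27655 changes, OsC4 stood at place 2 and OsAP25 at place 5 from the top, whereas RAFTIN1 stood at place 1104. Because the RNA came from whole anthers, more cells of a type and more RNA per cell cannot be told apart. Every one of the 6 average changes held its call in each of 35 alternative analyses.

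**Figure D1:**
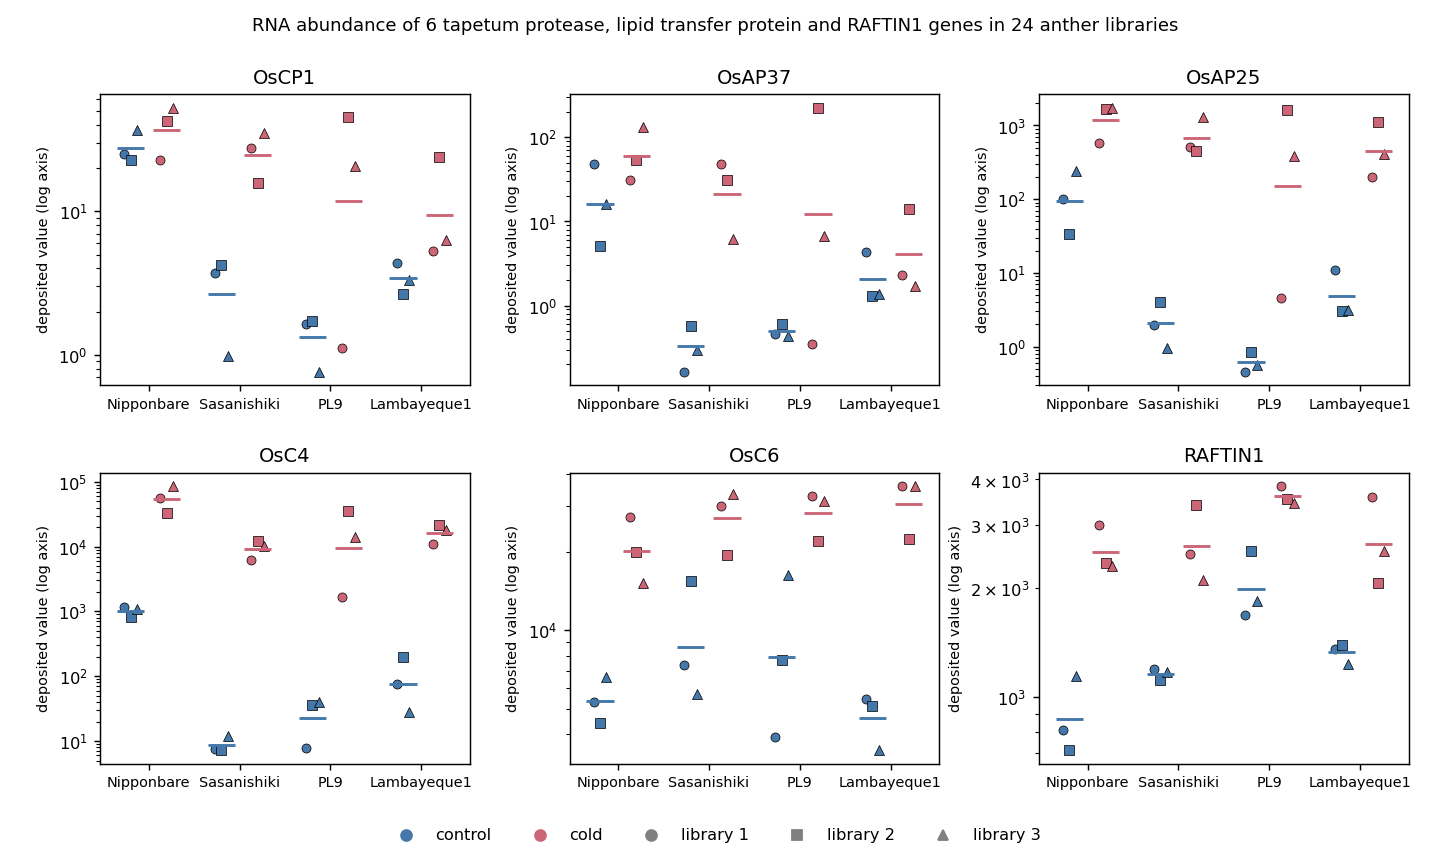
Deposited value (log axis) of each gene in the 24 libraries, by line. Blue points are untreated and red points cold libraries, the symbol gives the library number, and the bar is the mean on the log2(value + 1) scale. The cold libraries lie above the untreated ones of the same line throughout for OsAP25, OsC4, OsC6 and RAFTIN1, while OsCP1 and OsAP37 overlap in some lines and PL9 cold library 1 lies low for 4 genes.

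Line by line, 4 of the 6 genes were called higher in Nipponbare (12.8% of all identifiers), 6 in Sasanishiki (12.9%), 5 in PL9 (9.35%) and 4 in Lambayeque1 (11.9%). OsAP25, OsC4, OsC6 and RAFTIN1 were called in each of the 4 lines, as were 2.2% of all identifiers. In the same 4 genes all 3 cold libraries lay above all 3 untreated ones in each of the 4 lines, which was so for 3.91% of all identifiers. Taken by line, cold libraries lay wholly above untreated ones for 4 genes in Nipponbare (20.7% of all identifiers), 6 in Sasanishiki (18.8%), 4 in PL9 (17.3%) and 5 in Lambayeque1 (21.9%).

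Among the proteases, OsCP1 is a cysteine protease needed for normal microspores. In Nipponbare OsCP1 read 25.0, 22.8 and 36.8 in untreated libraries 1, 2 and 3 and 22.7, 42.4 and 52.7 in cold libraries 1, 2 and 3. Sasanishiki gave 3.71, 4.20 and 0.982 untreated and 27.4, 15.7 and 34.9 after cold. The Nipponbare groups thus overlapped, with untreated values already as high as the cold values of Sasanishiki, whereas in Sasanishiki every cold library was higher. In PL9 the gene read 1.64, 1.73 and 0.759 untreated and 1.12, 45.5 and 20.5 after cold. Lambayeque1 gave 4.35, 2.68 and 3.34 untreated and 5.25, 23.7 and 6.27 after cold. In PL9 cold library 1 stayed among the untreated values and the other two rose above them, and in Lambayeque1 the cold libraries lay just above the untreated ones except for a high library 2. OsCP1 rose in Sasanishiki by 2.82 (SE 0.76, adjusted p 0.010) and in PL9 by 2.46 (adjusted p 0.032), and the changes of 0.41 in Nipponbare and 1.24 in Lambayeque1 did not pass (adjusted p 0.73 and 0.26, all limma). The PL9 call was lost when any PL9 library other than cold library 1 was left out, 5 libraries in all (changes of 1.54 to 2.58, adjusted p 0.066 to 0.20).

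OsAP37, an aspartic protease that can set off cell death in plant and yeast cells, varied widely between libraries. Nipponbare gave 48.3, 5.15 and 16.3 in untreated libraries 1, 2 and 3 and 31.4, 53.2 and 132 in cold libraries 1, 2 and 3. In Sasanishiki it read 0.162, 0.565 and 0.30 untreated and 47.9, 31.2 and 6.14 after cold. Only in Sasanishiki did the cold libraries stand wholly above the untreated ones. PL9 gave 0.455, 0.602 and 0.431 untreated and 0.346, 226 and 6.70 after cold, a spread of 654 times between the lowest and the highest cold library. Lambayeque1 read 4.33, 1.30 and 1.38 untreated and 2.30, 14.0 and 1.71 after cold. In both of these lines cold library 2 held most of the signal, and the PL9 cold library 1 lay below all untreated PL9 libraries. The gene rose in Sasanishiki by 4.07 (SE 1.24, adjusted p 0.021, limma), and the changes of 1.83 in Nipponbare, 3.15 in PL9 and 0.73 in Lambayeque1 did not pass (adjusted p 0.30, 0.087 and 0.72). Without Sasanishiki control library 1, cold library 1 or cold library 2 the Sasanishiki change was 3.97, 3.51 and 3.81 (adjusted p 0.066, 0.089 and 0.062), and the PL9 change was 4.81 without PL9 cold library 1 (adjusted p 0.0055) and 1.11 without PL9 cold library 2 (adjusted p 0.52). Without Lambayeque1 cold library 2 the change in that line was -0.044.

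OsAP25, the second aspartic protease, rose in all 4 lines. Nipponbare gave 101, 33.8 and 240 in untreated libraries 1, 2 and 3 and 576, 1678 and 1748 in cold libraries 1, 2 and 3. For Sasanishiki the values were 1.99, 4.07 and 0.967 untreated and 507, 454 and 1321 after cold. Untreated Nipponbare libraries lay above all untreated libraries of the other lines, and every cold library of both lines exceeded every untreated one. PL9 gave 0.451, 0.836 and 0.568 untreated and 4.61, 1607 and 390 after cold. Lambayeque1 read 10.9, 3.04 and 3.13 untreated and 199, 1106 and 409 after cold. Cold libraries were again above untreated ones throughout, although PL9 cold library 1 lay below the untreated library 1 of Lambayeque1 and far below the other cold libraries of the series. The rises were 3.65 in Nipponbare, 7.76 in Sasanishiki, 6.56 in PL9 and 6.27 in Lambayeque1 (SE 1.31 each, adjusted p 0.044, 3.2e-04, 0.0024 and 0.0019, limma). The SE is the same because the fit shares the spread of a gene over all groups. On the log2 scale the SD of OsAP25 was 4.25 in cold PL9 and 0.173 in untreated PL9. Without PL9 cold library 1 the PL9 rise was 8.94, and without PL9 cold library 2 it was 4.86 (adjusted p 1.9e-06 and 0.015, limma). With only the PL9 libraries fitted, the PL9 rise missed the threshold (adjusted p 0.090, limma). The Nipponbare call was close to the threshold and was lost without any of 12 single libraries (adjusted p 0.0501 to 0.16): Nipponbare control 1 or 2, any Nipponbare cold library, Sasanishiki control 1 or cold 1, any PL9 control, and Lambayeque1 control 3 or cold 3. It was also lost with a pseudocount of 0.1 (adjusted p 0.055) and without the filter on low values (0.058). Quantile normalization (0.062) and rescaling to equal totals (0.066, all limma) lost it too.

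OsC4, a small secreted protein of the lipid transfer family made in the tapetum, showed the widest range of the 6. In Nipponbare it read 1163, 809 and 1103 in untreated libraries 1, 2 and 3 and 55274, 32388 and 86245 in cold libraries 1, 2 and 3. Sasanishiki gave 7.53, 7.18 and 11.8 untreated and 6308, 12350 and 10374 after cold. No cold library of either line came near the untreated ones, and OsC4 was the most abundant identifier in all 3 cold Nipponbare libraries, taking 3.23% to 6.36% of their totals. PL9 read 7.78, 35.9 and 40.3 untreated and 1681, 35612 and 14108 after cold. For Lambayeque1 the values were 75.7, 197 and 28.1 untreated and 10924, 21699 and 17818 after cold. PL9 cold library 1 was the lowest cold library of the series and still stood above the highest untreated library of any line, Nipponbare library 1. The rises were 5.73 in Nipponbare, 9.92 in Sasanishiki, 8.64 in PL9 and 7.73 in Lambayeque1 (SE 0.84 each, adjusted p 6.0e-05, 3.5e-07, 8.2e-06 and 4.4e-06, limma). Among all identifiers tested the change was the highest in Nipponbare and in Lambayeque1, and stood at place 2 in Sasanishiki and place 4 in PL9. The PL9 rise was 9.88 without PL9 cold library 1 and 7.68 without PL9 cold library 2 (adjusted p 1.1e-07 and 3.5e-05, limma).

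OsC6, the lipid transfer protein needed for normal pollen wall and orbicule formation, was abundant before cold. Nipponbare gave 5303, 4400 and 6615 in untreated libraries 1, 2 and 3 and 27265, 19985 and 15241 in cold libraries 1, 2 and 3. In Sasanishiki it read 7356, 15427 and 5721 untreated and 29995, 19551 and 33499 after cold. All cold libraries exceeded the untreated ones in both lines, and the untreated libraries already had OsC6 among their 6 most abundant identifiers. PL9 gave 3903, 7727 and 16350 untreated and 32750, 22080 and 31460 after cold. In Lambayeque1 the values were 5474, 5137 and 3462 untreated and 35910, 22530 and 35731 after cold. The groups did not overlap here either, and OsC6 was the most abundant identifier in all 3 cold Lambayeque1 libraries. The rises were 1.92 in Nipponbare, 1.64 in Sasanishiki, 1.84 in PL9 and 2.74 in Lambayeque1 (SE 0.55 each, adjusted p 0.013, 0.033, 0.026 and 0.0013, limma). Quantile normalization, which gives the top ranks the same value in every library, brought the rise to 0.31 in Nipponbare and 0.35 in Sasanishiki (adjusted p 0.63 in both). Without the filter on low values the rises were the same but missed the threshold in each of the 4 lines (adjusted p 0.18 in Nipponbare, 0.28 in Sasanishiki, 0.25 in PL9 and 0.060 in Lambayeque1), whereas the average over lines passed (adjusted p 0.0025). The call was lost without 2 single libraries in Nipponbare (control 2 and cold 1, adjusted p 0.054 and 0.058), 4 in Sasanishiki (control 1 and 3, cold 1 and 3, adjusted p 0.092 to 0.12) and 4 in PL9 (control 1 and 2, cold 1 and 3, adjusted p 0.053 to 0.16).

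RAFTIN1, described in wheat and rice as needed for pollen maturation, had the smallest average rise of the 6. Nipponbare read 810, 712 and 1144 in untreated libraries 1, 2 and 3 and 2986, 2343 and 2298 in cold libraries 1, 2 and 3. Sasanishiki gave 1194, 1116 and 1173 untreated and 2489, 3406 and 2109 after cold. The cold libraries of both lines lay above the untreated ones with no overlap. In PL9 it read 1683, 2543 and 1842 untreated and 3840, 3534 and 3449 after cold. Lambayeque1 gave 1358, 1397 and 1238 untreated and 3587, 2062 and 2529 after cold. PL9 cold libraries 1 and 2, far apart for the proteases and OsC4, were close together for RAFTIN1. The rises were 1.53 in Nipponbare, 1.17 in Sasanishiki, 0.86 in PL9 and 1.00 in Lambayeque1 (SE 0.26 each, adjusted p 2.5e-04, 0.0029, 0.030 and 0.0093, limma). The PL9 call was lost without any PL9 library but control library 2 (5 libraries, adjusted p 0.061 to 0.13), and the Lambayeque1 call without cold library 1 (0.78, adjusted p 0.055).

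**Figure D2:**
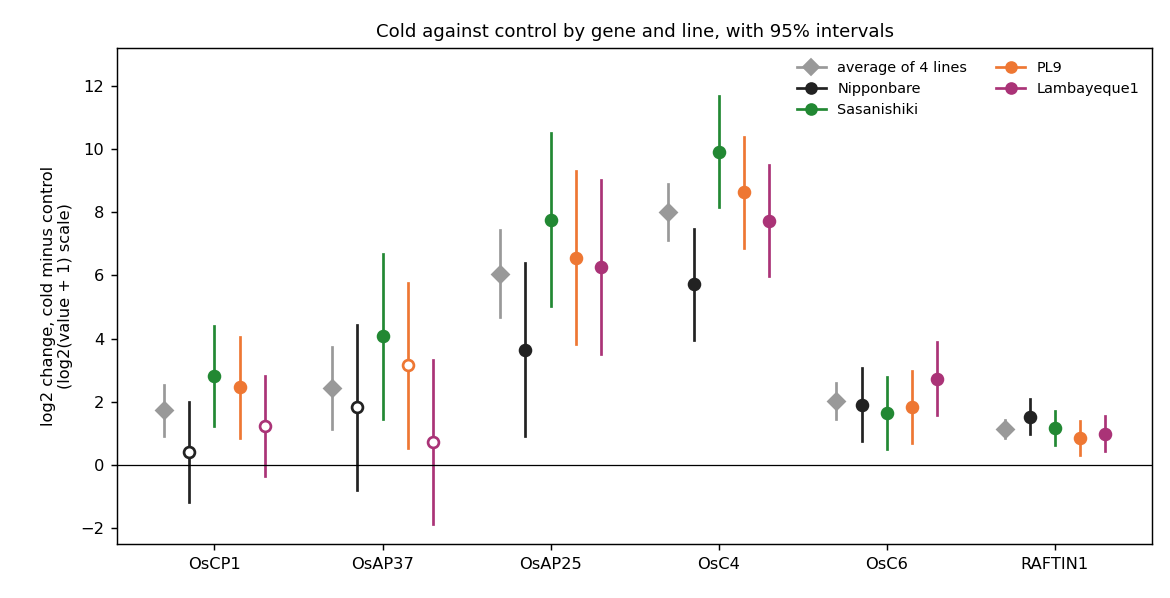
Change with cold on the log2(value + 1) scale for each gene, as the average of the 4 lines (grey diamonds) and by line (coloured circles), with 95% intervals from limma. Filled symbols passed an adjusted p of 0.05. OsC4 and OsAP25 show the widest changes, OsC6 and RAFTIN1 narrow ones near 2 and 1, and open circles mark OsCP1 in Nipponbare and Lambayeque1 and OsAP37 in all lines but Sasanishiki, where the change did not pass.

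Whether the lines differed in their response was asked for each gene and each of the 6 pairs of lines, 36 differences in all. 1 passed, OsC4 in Sasanishiki against Nipponbare, and 4 had an unadjusted p below 0.05 (limma). Among all identifiers, 5.57% passed for Sasanishiki against Nipponbare, 4.57% for PL9 against Nipponbare, 0.582% for Lambayeque1 against Nipponbare, 1.55% for PL9 against Sasanishiki, 3.38% for Lambayeque1 against Sasanishiki and 0.944% for Lambayeque1 against PL9. The OsC4 rise was greater in Sasanishiki by 4.19 (SE 1.19, 95% interval 1.71 to 6.68, adjusted p 0.044, limma). It missed the threshold when any of 18 single libraries was left out (adjusted p 0.051 to 0.095), among them each of the 12 libraries of these 2 lines. The OsC4 change in PL9 exceeded that in Nipponbare by 2.91 (interval 0.43 to 5.40), which did not pass (adjusted p 0.17). This difference was 4.16 without PL9 cold library 1 (adjusted p 0.012) and 3.83 with quantile normalization (adjusted p 0.044), but 1.95 without PL9 cold library 2 (adjusted p 0.38) and 1.54 with library weights (adjusted p 0.45). Those weights left PL9 cold library 3 almost out of the fit, with a weight that rounds to 0. For RAFTIN1 the interval of the difference between Sasanishiki and Nipponbare ran from -1.14 to 0.41, and for OsC6 from -1.90 to 1.34.

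Untreated anthers of the lines differed in 13 of these 36 tests, 10 of them lower and 3 higher in the line named first. The shares of all identifiers were 39.4% for Sasanishiki against Nipponbare, 31.5% for PL9 against Nipponbare, 8.57% for Lambayeque1 against Nipponbare, 23.4% for PL9 against Sasanishiki, 32.7% for Lambayeque1 against Sasanishiki and 12.9% for Lambayeque1 against PL9. Nipponbare held the highest untreated level of the 3 protease genes and of OsC4. In Sasanishiki all of these were lower, with differences from Nipponbare of -2.97 for OsCP1, -3.70 for OsAP37, -4.93 for OsAP25 and -6.72 for OsC4 (adjusted p 0.0044, 0.024, 0.0056 and 3.1e-06, limma). In PL9 the differences from Nipponbare were -3.62 for OsCP1, -3.54 for OsAP37, -5.88 for OsAP25 and -5.42 for OsC4 (adjusted p 0.0015, 0.036, 0.0023 and 1.0e-04). In Lambayeque1 those of OsCP1 and OsC4 passed, at -2.70 and -3.73 (adjusted p 0.033 and 0.0089), whereas those of OsAP37 and OsAP25, at -2.49 and -4.02, did not (adjusted p 0.24 and 0.064). The OsAP25 difference passed in 5 alternatives (adjusted p 0.0012 to 0.021): library weights, without PL9 cold library 1, library 2 or both, and with only the libraries of the 2 lines fitted. OsC4 was higher in untreated Lambayeque1 than in Sasanishiki by 2.98 (adjusted p 0.010). RAFTIN1 was higher in untreated PL9 than in Nipponbare by 1.19 (adjusted p 0.0020) and than in Sasanishiki by 0.78 (adjusted p 0.037). For OsC6 0 of the 6 pairs of untreated lines passed, also at an unadjusted p of 0.05 (limma), and the ranges of neighbouring groups overlapped. The OsAP37 calls were lost without 4 single libraries for Sasanishiki (controls 1 and 3 of each line, adjusted p 0.051 to 0.11) and 5 for PL9 (Nipponbare controls 1 and 3 and any PL9 control, adjusted p 0.074 to 0.15), that of OsCP1 in Lambayeque1 without any control of the 2 lines (0.064 to 0.10), that of OsC4 in Lambayeque1 against Nipponbare without Lambayeque1 control 3 (-3.04, 0.061) and against Sasanishiki without Lambayeque1 control 2 (2.29, 0.069), and that of RAFTIN1 in PL9 against Sasanishiki without any Sasanishiki control or PL9 control 2 or 3 (0.058 to 0.16).

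After cold 1 of the 36 differences between lines passed, against 29.9% of all identifiers for Sasanishiki and Nipponbare, 7.3% for PL9 and Nipponbare, 2.75% for Lambayeque1 and Nipponbare, 17.3% for PL9 and Sasanishiki, 24.9% for Lambayeque1 and Sasanishiki and 7.17% for Lambayeque1 and PL9. It was again OsC4, lower in Sasanishiki than in Nipponbare by a log2 difference of -2.53 (SE 0.84, adjusted p 0.029, limma). The call was lost without Nipponbare cold library 1 or 3 or Sasanishiki cold library 1 or 3 (-2.18 to -2.60, adjusted p 0.057 to 0.12). Cold PL9 differed from cold Nipponbare by -1.57 for OsCP1, -2.21 for OsAP37, -2.97 for OsAP25 and -2.5 for OsC4, and none of these passed (adjusted p 0.22, 0.30, 0.18 and 0.076). The differences depended on which PL9 cold library was included. Without library 2 they were -2.49, -4.26, -4.67 and -3.46 and all passed (adjusted p 0.027, 0.0052, 0.014 and 0.0086), and without library 1 they were -0.27, -0.56, -0.59 and -1.26 (adjusted p 0.86, 0.86, 0.77 and 0.39). Cold Lambayeque1 differed from cold Nipponbare by -1.87 for OsCP1 and -3.59 for OsAP37, which did not pass (adjusted p 0.21 and 0.14). Leaving out a PL9 library does not alter these 2 differences, only the spread estimated over all groups, and the adjusted p was then 0.035 for OsCP1 without PL9 cold library 1 and 0.018 for OsAP37 without PL9 cold library 2.

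Ordered by level over the 8 groups, the genes fell into unlike patterns. For OsCP1 untreated Nipponbare, with a mean of 28.2 ± 7.51 (SD, n = 3), stood second, between cold Nipponbare at 39.3 ± 15.3 and cold Sasanishiki at 25.98 ± 9.69, and its range overlapped both neighbours. For OsC4 untreated Nipponbare at 1025 ± 190 stood highest of the untreated groups and below every cold group, with no overlap with the group above it or the one below. For RAFTIN1 the order led from cold PL9 at 3608 ± 206 down to untreated Nipponbare at 889 ± 227, with untreated PL9 at 2023 ± 458 overlapping cold Nipponbare at 2543 ± 385. For OsC6 all neighbours in the order overlapped, from 31390 ± 7674 in cold Lambayeque1 to 4691 ± 1077 in untreated Lambayeque1.

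The libraries of a group also differed among themselves, and some genes did so together. In PL9 cold library 1 OsCP1, OsAP37, OsAP25 and OsC4 had their lowest values of that group and in library 2 their highest, while OsC6 was highest in library 1 and lowest in library 2. Taking each cold library as its log2 deviation from its group mean, OsCP1 and OsAP25 were correlated at r = 0.973 over 12 libraries, and at 0.915 over the 9 libraries without PL9. OsAP25 and OsC4 gave 0.901, but 0.373 without PL9. The first relation was nearly as strong outside PL9, and the second was much weaker there. Other pairs were also weaker without PL9, at 0.256 for OsAP37 with OsAP25 (0.76 with PL9), 0.285 for OsCP1 with OsC4 (0.844 with PL9) and 0.236 for OsAP37 with OsC4 (0.77 with PL9). In untreated libraries the same values were 0.67 for OsCP1 with OsAP25 and 0.073 for OsAP25 with OsC4. These correlations are descriptions: the genes share each library, its scale and its sampling time.

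Among cold libraries the deviations of OsC6 and RAFTIN1 were negatively correlated with those of OsCP1, OsAP37, OsAP25 and OsC4, though not strongly in every pair or in every line. RAFTIN1 gave only -0.204 with OsC4 and -0.171 with OsAP37. In Sasanishiki, cold library 3 was highest in OsC6 and also in OsCP1 and OsAP25. In each of the 4 lines the cold library with the highest OsC4 had the lowest OsC6, and the deviations of these genes were correlated at -0.495 over 12 libraries and -0.538 over the 9 without PL9. In untreated libraries the value was 0.538. Likewise the cold library with the highest RAFTIN1 was the one with the lowest OsCP1 and OsAP25 in 4 of 4 lines, with a correlation of -0.461 between OsAP25 and RAFTIN1, and -0.914 without PL9. The cold library highest in OsCP1 and OsAP25 was lowest in RAFTIN1 in 3 of 4 lines. Among untreated libraries the highest RAFTIN1 met the lowest OsCP1 or OsAP25 in 1 of 4 lines each. There the deviations of OsAP25 and RAFTIN1 were correlated at 0.597. OsCP1 and OsAP25 moved together, so they are not separate observations. OsC4 alone made up 4.39% to 81.6% of the summed signal of the 6 genes in cold libraries.

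**Figure D3:**
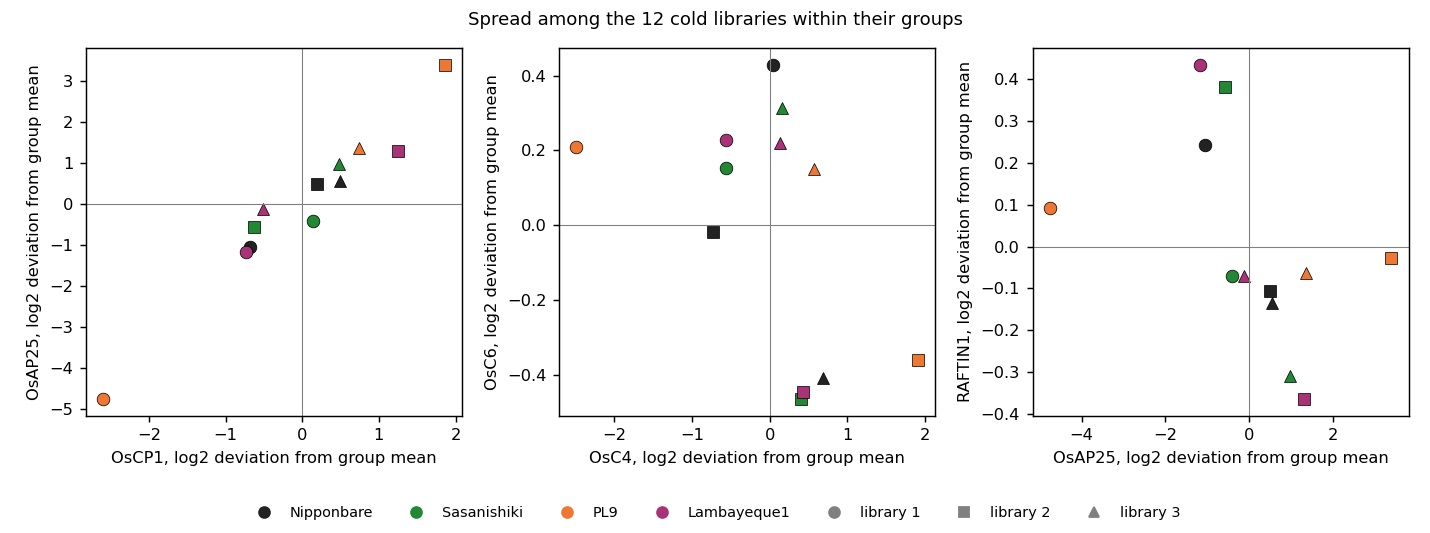
Log2 deviation of each of the 12 cold libraries from its group mean, for OsCP1 against OsAP25, OsC4 against OsC6 and OsAP25 against RAFTIN1. Colours give the line and symbols the library number. OsCP1 and OsAP25 lie along a rising line, whereas the libraries with the highest OsC4 of each line have OsC6 below its group mean; PL9 cold libraries 1 and 2 lie at opposite ends.

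RTS, a tapetum-specific gene needed for male fertility, was looked at library by library after its values had been seen. It read 14082, 4.29 and 6734 in PL9 cold libraries 1, 2 and 3 and 3364, 61.3 and 3.74 in those of Nipponbare. Sasanishiki gave 14792, 49612 and 9046 after cold, and Lambayeque1 3820, 282 and 2637. In all 4 lines the cold library lowest in RTS was the one highest in OsCP1 and in OsAP25, which held in 1 of 4 lines among untreated libraries. After cold it held in 3 of 4 lines for OsAP37 and for OsC4, in 1 for OsC6 and in 0 for RAFTIN1. Over the 12 untreated libraries OsCP1 and RTS were correlated at -0.949, and over the 12 cold libraries at -0.562, values that mix differences between lines with those between libraries of a group. Taken as deviations from the group means, they were correlated at -0.489 among untreated and -0.755 among cold libraries. Among untreated deviations RTS gave 0.434 with OsAP37, 0.019 with OsAP25 and 0.346 with OsC4, so the negative relation was seen there for OsCP1 but not for these genes. Untreated Nipponbare, highest of the untreated groups in the proteases and OsC4, was the lowest of them in RTS, at 910, 449 and 669 against 6593 to 46714 in the other untreated libraries.

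TDR and EAT1, regulators of 4 of the 6 genes, rose with cold. Of 10 tapetum regulators 3 rose and 1 fell on average, against 25.8% and 25.6% of all identifiers, with a median change of 0.25, against -0.001 for all identifiers. TDR rose by 1.21 (SE 0.15, adjusted p 1.8e-06) and EAT1 by 1.57 (SE 0.17, adjusted p 4.5e-07), and MSP1, a receptor kinase that sets cell fate in the young anther, by 0.96 (adjusted p 1.6e-05, all limma). Both TDR and EAT1 passed in each of the 4 lines. Os12g0472500, carried in the list under a name that could not be matched to its place in the genome, fell by 0.91 (adjusted p 0.0057). UDT1, an early tapetum factor, changed by 0.20, TIP2, which acts upstream of TDR and EAT1, by 0.16, and PTC1, a PHD-finger factor of tapetum breakdown, by 0.86, and these did not pass (adjusted p 0.44, 0.19 and 0.12).

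Level for level, EAT1 read 132, 70.1 and 134 in untreated Nipponbare and 31.2 to 73.5 in the other untreated libraries, and 104 to 349 in cold libraries. PL9 cold library 1 had the lowest EAT1 of the cold libraries and library 2 the highest. The correlation of EAT1 with its target genes over all 24 libraries was 0.917 for OsAP25 and 0.82 for OsAP37, and among the deviations of cold libraries 0.91 and 0.90. EAT1 also gave 0.906 with OsC4 over 24 libraries and 0.917 with OsCP1 among the cold deviations. Without PL9 the cold deviations gave 0.858 for OsAP25, 0.606 for OsAP37, 0.886 for OsCP1 and 0.433 for OsC4, and untreated deviations gave 0.64 for OsAP25, 0.67 for OsAP37 and -0.044 for OsCP1. PTC1 followed OsAP37 more closely than EAT1 did among untreated libraries, at 0.952 against 0.76, values that mix differences between lines with those within groups. As untreated deviations they were 0.892 against 0.67. Among cold libraries the order was the reverse, at 0.857 for PTC1 against 0.897 for EAT1. As cold deviations they were 0.827 against 0.90, and 0.294 against 0.606 without PL9. In Lambayeque1 PTC1 read 11.03, 3.45 and 4.42 untreated and 1.15, 7.65 and 1.97 after cold, a line in which OsAP37 did not pass the test. With UDT1 the correlations over 24 libraries lay between -0.055 for OsCP1 and 0.243 for OsC4. Among cold deviations UDT1 gave -0.772 with OsCP1, -0.593 with OsAP37, -0.705 with OsAP25 and -0.399 with OsC4. With OsC6 and RAFTIN1 it gave 0.294 and 0.671. Without PL9 the same 6 values, in this order, were -0.826, -0.179, -0.772, 0.259, 0.066 and 0.801. TDR was correlated with OsC6 at 0.816 over 24 libraries, at 0.678 over the 12 untreated ones and at -0.553 over the 12 cold ones. As deviations from the group means TDR and OsC6 gave 0.859 among untreated and -0.498 among cold libraries. With OsCP1, TDR gave 0.725 over 24 libraries, 0.424 over the untreated and 0.862 over the cold ones. Their deviations gave 0.281 among untreated and 0.838 among cold libraries.

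Genes of the sporopollenin and pollen wall lipid pathway, which supply the material that lipid transfer proteins carry, rose in part. Of 12 listed genes 6 rose and 1 fell on average, against 25.8% and 25.6% of all identifiers, with a median change of 2.42. The 4 with the smallest adjusted p were CYP704B2, a fatty acid hydroxylase (5.75, adjusted p 1.1e-07), the transporter gene ABCG15 (4.54, 1.8e-06), ACOS12, an acyl-CoA synthetase (5.42, 9.1e-06), and DPW, a fatty acid reductase (3.09, 2.0e-05, all limma). By line, 0 of the 12 were called higher in Nipponbare, where 1 was higher at an unadjusted p below 0.05, 7 in Sasanishiki, 6 in PL9 and 2 in Lambayeque1 (limma), against 12.8%, 12.9%, 9.35% and 11.9% of all identifiers. The cold PL9 libraries were far apart here too. Their summed levels of the 12 genes were 962, 8169 and 23620 from lowest to highest, against 395 to 906 in untreated PL9. ABCG15 read 3.97, 506 and 138 in PL9 cold libraries 1, 2 and 3. Of the 12, 1 fell in Nipponbare and 1 in Lambayeque1, where 4102 and 3348 of the 27655 identifiers fell. Whether these counts differ between lines was not tested. Of 3 further tapetum genes, the anther-specific YY1 rose by 8.20 (SE 0.69, adjusted p 2.2e-08), close to the rise of OsC4. Os02g0491300, also carried under an unmatched name, fell by 0.37 (adjusted p 0.012), and RTS changed by -2.64 (SE 1.11, adjusted p 0.053).

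**Figure D4:**
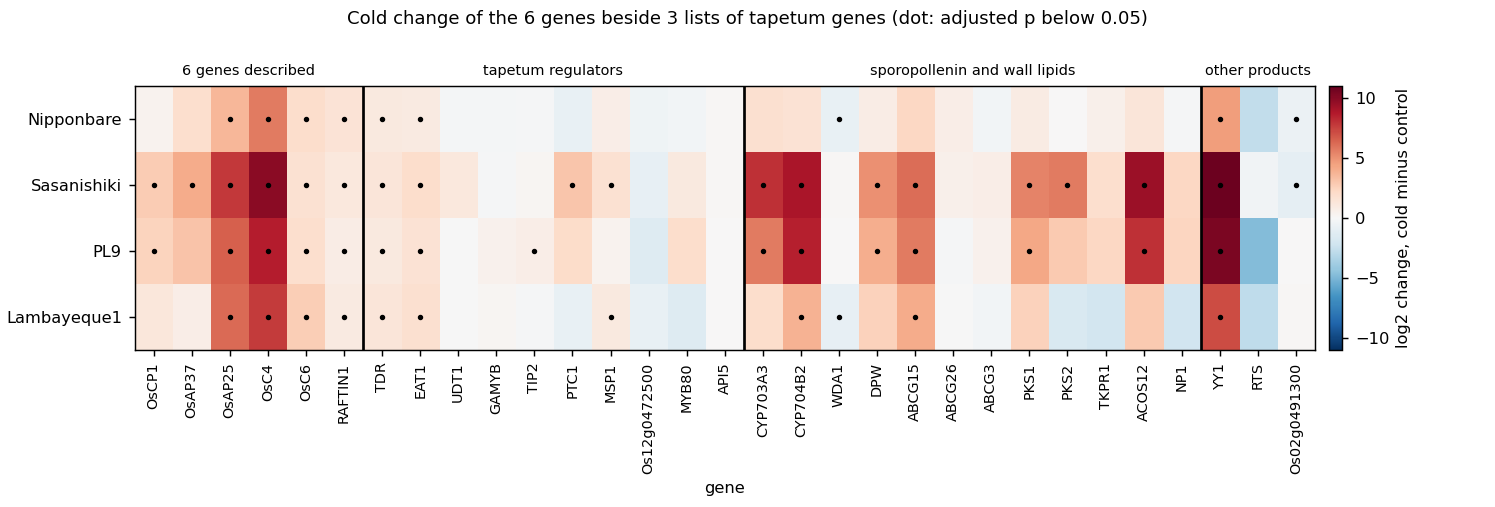
Change with cold by line (rows) on the log2(value + 1) scale for the 6 genes and for 3 lists of tapetum genes (columns), red for higher and blue for lower after cold. A dot marks an adjusted p below 0.05 by limma. OsC4, OsAP25 and YY1 are red in all 4 lines, wall lipid genes carry 7 dots in Sasanishiki and 6 in PL9, and TDR and EAT1 carry one in all 4 lines.

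Markers of other cells of the floret changed in both directions, and 25.8% of all identifiers rose and 25.6% fell in the same comparison. Of 8 meiocyte genes tested 2 rose and 5 fell, among them the meiotic recombinase gene DMC1A by 1.10 (adjusted p 5.1e-06, limma), and their summed level ranged from 59.4 to 87.8 in untreated and from 42.5 to 64.6 in cold libraries. Of 2 genes of maturing pollen tested 1 fell, MADS62, a pollen MADS-box factor, by 1.47 (adjusted p 2.6e-06, limma). The levels summed over all 3 listed genes were 0.457 to 18.8 (median 3.49) untreated and 0.119 to 1.68 (median 0.877) after cold. This sum includes a gene too low to be tested, which reached 13.1 in an untreated Sasanishiki library. Of 6 genes of the carpel and outer floret tested 2 rose and 3 fell. The sums over all 7 listed genes were 68.5 to 139 untreated and 66.3 to 96.6 after cold. Of 5 stamen identity genes 2 fell. No marker list held a gene at 0 in all libraries of a group, and the part these cells played in the results above was not tested.

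The genes most like each of the 6 were named by Pearson correlation of log2(value + 1) over the 24 libraries. OsCP1 was closest to Os03g0290900 (0.98), Os02g0219000 (0.98) and Os06g0703600 (0.98). OsAP37 was closest to Os04g0448550 (0.99), whose identifier is the next in number and whose overlap with OsAP37 is not known here, then to Os06g0611400 (0.96) and Os08g0499400 (0.96). OsAP25 was closest to Os04g0543700 (0.99), the wall transporter gene ABCG15 (0.99) and Os04g0573100 (0.98). OsC4 was closest to Os10g0419100 (0.97), Os01g0891000 (0.97) and YY1 (0.96). OsC6 was closest to Os01g0848200 (0.97), Os06g0636700 (0.96) and Os05g0342000 (0.93), and RAFTIN1, with the lowest likeness, to Os01g0367400 (0.90), Os09g0479100 (0.88) and Os07g0240600 (0.88). None of the 6 was among the 3 nearest of another.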

How the data were processed

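RNA-seq of rice anthers gave 1 deposited signal value per row and library, headed TPM per the file headers. The submitters' processing notes name kallisto 0.46.2, sleuth 0.30.0 and the build IRGSP-1.0. Read counts were not used here, so depth is unknown. Each file has 44785 rows and 37910 identifiers. The 6 genes stand on 1 row each, whereas 5399 identifiers fill several rows with values repeated across libraries, which were read back to 1 value per library. The 27655 identifiers that reached 1 in 3 or more libraries were fitted as log2(value + 1), a scale that understates changes of low genes, with limma 3.58.1 in R 4.3.3 (trend, 8 group means, 24 libraries). The spread of a gene, and so its SE, was shared by all 8 groups. For OsCP1, OsAP37, OsAP25 and OsC4 the cold PL9 libraries varied most of the groups on this scale, so the shared SE understates their spread. Benjamini-Hochberg adjustment ran over all 27655 identifiers per comparison (threshold 0.05). Python 3.11.15, pandas 2.3.3, numpy 2.4.6 and matplotlib 3.10.9 were also used, and the fit was tested on simulated data. Groups came from the titles. The 6 genes and the gene lists were chosen with earlier results of these data known. From each list the text names at most 4 genes past the threshold with a log2 change of at least 1, by smallest adjusted p, and always TDR, EAT1, UDT1, PTC1 and TIP2; MSP1, MADS16, MADS2, MADS3, RTS, Os12g0472500 and Os02g0491300 were named after their values were seen. Names were checked by chromosome and relative gene order (within 2%) against a RefSeq table of another assembly, ASM3414082v1: 34 agreed, the 6 genes among them, 17 were not in the table, 3 lay elsewhere and 1 identifier was not found. Alternatives covered the pseudocount, filter, scaling, row handling, library weights, replicate block and each library left out.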

Additional observations from a re-analysis of the deposited data

Results flagged for a closer look

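The cold response of OsC4 differed between Sasanishiki and Nipponbare by the test of the difference itself, 4.19 on the log2(value + 1) scale (SE 1.19, adjusted p 0.044, limma). The rise was 9.92 in Sasanishiki and 5.73 in Nipponbare, and all 3 cold libraries were above all 3 untreated ones in both lines. The untreated levels differed by -6.72 and the cold levels by -2.53 (Sasanishiki minus Nipponbare). The difference between the responses missed the threshold in 20 of 36 alternative analyses, with changes of 3.69 to 4.53 among those.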

How the results depend on the processing

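All 6 average rises kept their direction and call in each of 35 alternatives. The number of genes called higher stayed within 4 to 6 in Sasanishiki and 3 to 4 in Lambayeque1. In Nipponbare it fell from 4 to 2 without the filter on low values and with quantile normalization, and lay between 2 and 4 with single libraries left out. In PL9 it fell from 5 to 3 without the filter, to 2 with library weights and to 1 when only the PL9 libraries were fitted. It lay between 2 and 5 with single libraries left out. Leaving out PL9 cold libraries 1 and 2 together was an alternative chosen after seeing the data. It leaves 1 library in cold PL9, so its counts of calls are left out here. Of the 36 response differences the 1 call became 0 with a pseudocount of 5 or no filter and 2 with quantile normalization or with only the lines compared. It became 4 with library weights and 0 to 6 with single libraries left out. The 1 call between cold-treated lines became 0 with quantile normalization and 2 with only the lines compared. It became 11 with library weights and 0 to 8 with single libraries left out. Calls between untreated lines ranged from 10 to 18. Without the filter on low values OsC6 kept its rises and lost its call in each of the 4 lines. Single genes also lost their call with OsAP37 in Sasanishiki at 2.38 (pseudocount 5, adjusted p 0.076), OsCP1 in PL9 at 1.23 (library weights, 0.34) and RAFTIN1 in PL9 at 0.37 (quantile normalization, 0.36). The average rise of OsC6, 2.03, was 1.08 with quantile normalization and still called. Counts over all identifiers moved too: with library weights from 7654 to 12201 in Nipponbare, 7203 to 11520 in Sasanishiki, 6640 to 13406 in Lambayeque1 and 161 to 2624 for the response of Lambayeque1 against Nipponbare, and with only the line compared to 3954 in Sasanishiki and, from 4864, to 1781 in PL9. The library weights were very uneven, at 65.3 for Sasanishiki cold library 1 and, as rounded, 0 for PL9 cold library 3. The other libraries had weights of 0.586 to 9.37. All results with library weights thus rest mainly on Sasanishiki cold library 1 for that group and hardly on PL9 cold library 3. The cause of these shifts was not tested.

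Changes of sign occurred for OsAP37 in Lambayeque1 (0.73; -0.33 with library weights, -0.044 to 1.19 with single libraries left out, the lowest without Lambayeque1 cold library 2) and for the OsC4 response in Lambayeque1 against PL9 (-0.91; 0.64 with library weights, -2.15 without PL9 cold library 1, 0.050 without library 2). Rescaling each library to equal totals, also chosen after seeing the data, moved the median of all identifiers by -0.13 on average and -0.26 in Nipponbare, and the share of calls that were higher from 50.2% to 34.5% on average, 46.4% to 20.9% in Nipponbare, 49.6% to 37.4% in Sasanishiki and 53.1% to 34% in PL9. Pairing of control and cold libraries by their numbers was not evident: 2 of 12 pairs of the same number had correlated deviations over 0.1 (-0.4 to 0.121). This check cannot exclude pairing, because the deviations of 3 libraries from their own mean depend on each other. With a replicate block, OsC6 in Sasanishiki (1.64, adjusted p 0.052) and RAFTIN1 in untreated PL9 against Sasanishiki (0.78, adjusted p 0.055) missed the threshold, and no other call given in the text for the 6 genes changed. Depth is unknown, so low values such as those of OsAP37 in untreated PL9 and Sasanishiki carry no counting interval.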
